A study of Bos taurus and Bos indicus with 3 samples.

Results

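Histones are the proteins around which DNA is wound in the nucleosome. Cells carry many near-identical copies of the canonical core histone genes (H2A, H2B, H3 and H4) and of the linker histone H1, most of them in a cluster that lies on chromosome 23 of cattle. Canonical histone genes are transcribed mainly during DNA replication, and their mRNAs usually end in a stem-loop instead of a poly(A) tail. Replacement variants such as H3.3, H2A.Z and H2A.J are encoded by genes elsewhere in the genome, are transcribed outside of replication as well, and give polyadenylated mRNAs.

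All gene models whose name is that of a core or linker histone and whose expression was above 0 in at least 1 library were selected by name, and each locus was kept apart. This gave 51 histone loci among the 25968 models of the table and the 15286 models above 0 in any library. A further 7 models with a histone name were listed at 0 in every library: a pair of H2A1 models, 1 H3.1, 1 H3.2, and models named H2BV, H1FOO and H1FNT. The lowest locus that was kept, an H3.1 model, reached no more than 0.620 FPKM. Of the 51 loci, 37 lay on chromosome 23 and 14 elsewhere. Those elsewhere were 8 canonical loci and all 6 replacement variants. The set includes the linker histones H1.1 and H1FX, so that it is wider than the core histones alone. The names did not take in 3 related models above 0, namely H1.0 (91.3 FPKM in Cholistani, 86.9 in Jersey and 68.1 in Holstein), the centromeric histone CENPA (47.6, 23.3 and 26.7 FPKM in the same breeds) and a merged model that begins with another protein's accession and also holds an H2B1 name (450.1, 368 and 172 FPKM).

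The libraries compared were polyadenylated leukocyte RNA of Cholistani cows, an indicine breed sampled in Pakistan (blood of 45 cows pooled), and of Jersey and Holstein cows, taurine breeds sampled in Wisconsin (7 and 40 cows pooled). Each breed had 1 library, no treatment was given, and ages were not stated in the sources used here. RNA of the Cholistani pool alone was shipped in a dry storage matrix, so breed, place and shipment cannot be told apart. Jersey and Holstein cows were kept at different Wisconsin sites, so breed and site cannot be told apart between them either. With no replicates there is no test and no error of any value, and each comparison describes these libraries. Expression is given in FPKM (fragments per kilobase of exon, with the authors' upper-quartile scaling of each library), a scale per length. RNA was selected by its poly(A) tail and fragments by size, which can affect short models and mRNAs without a tail. Levels of canonical loci beside variants therefore describe these libraries and not the amount of histone mRNA in the cells. The fragments behind each value are unknown.

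The FPKM of all models summed to 9518430 in Cholistani, 6288100 in Jersey and 5949770 in Holstein. Ratios that involve Cholistani are therefore also given after each library was rescaled to the mean of these sums, which moved the median log2 ratio of all models between Cholistani and Holstein to -0.43, against 0.15 as deposited, and between Cholistani and Jersey to -0.41, against 0.12. Between Jersey and Holstein it was -0.03, against 0. Rescaling to a common sum replaces the authors' upper-quartile scaling and is given as an alternative, not as a correction. T and B cell markers were above 0 in all libraries. Summed levels in Cholistani, Jersey and Holstein were 11469, 5589 and 5486 FPKM over 6 T cell genes. Over 4 B cell genes they were 17685, 9403 and 7525 FPKM. CD79A made up most of the B cell sums (14273, 6190 and 5281 FPKM). PAX5, 1 of the 4 B cell genes, went the other way (145, 381 and 296 FPKM). In pooled bulk RNA, a different share of a cell type and a different amount of RNA per cell cannot be told apart.

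Replacement variants made up most of the FPKM of histone loci in the polyadenylated library of every breed. The 6 variant loci summed to 24850.1 FPKM in Cholistani, 15213 in Jersey and 14285 in Holstein, which was 86.2%, 81.1% and 87.6% of the FPKM of all histone loci. The 45 canonical loci together reached 3970 FPKM in Cholistani, 3547 in Jersey and 2028 in Holstein. The lowest variant, H2A.Z, lay above all canonical loci in each breed. All variants ranked between percentiles 89.5 and 98.6 of the models above 0 in their library.

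H3.3, which is deposited in transcribed chromatin, was listed at a pair of loci with unequal differences between breeds. The locus on chromosome 16 (chr16:26105112-26113646 on btau4.0) had 5683 FPKM in Cholistani, 4706 in Jersey and 4642 in Holstein. The locus on chromosome 19 (chr19:57542429-57545879) had 6628, 2790.2 and 2664 FPKM in the same breeds. The chromosome 19 locus was thus 2.49 times as high in Cholistani as in Holstein and the more abundant of the pair in Cholistani only, whereas the chromosome 16 locus was 1.22 times as high. After rescaling, the chromosome 19 locus had a log2 ratio of 0.64 between Cholistani and Holstein and the chromosome 16 locus one of -0.39. The direction of the chromosome 16 locus thus turned with the scale, and the median of all models on that scale was -0.43.

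H1FX, a linker histone variant on chromosome 22 (chr22:60975931-60978154), had 5553 FPKM in Cholistani, 3157 in Jersey and 2768 in Holstein. H2A.V and H2A.Z, closely related variants found near promoters, had 3121 and 1249 FPKM in Cholistani, 2298 and 633 FPKM in Jersey, and 2165 and 559.9 FPKM in Holstein. H2A.J, a mammalian H2A variant on chromosome 5, had 2616, 1628 and 1486 FPKM in Cholistani, Jersey and Holstein. All 6 variants were highest in Cholistani as deposited, where 50.2% of all models were highest (24.1% in Jersey and 25.6% in Holstein). After rescaling H2A.V (log2 ratio -0.15) and the H3.3 locus of chromosome 16 (-0.39) were lower in Cholistani than in Holstein. The median of all models was then -0.43.

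**Figure D1:**
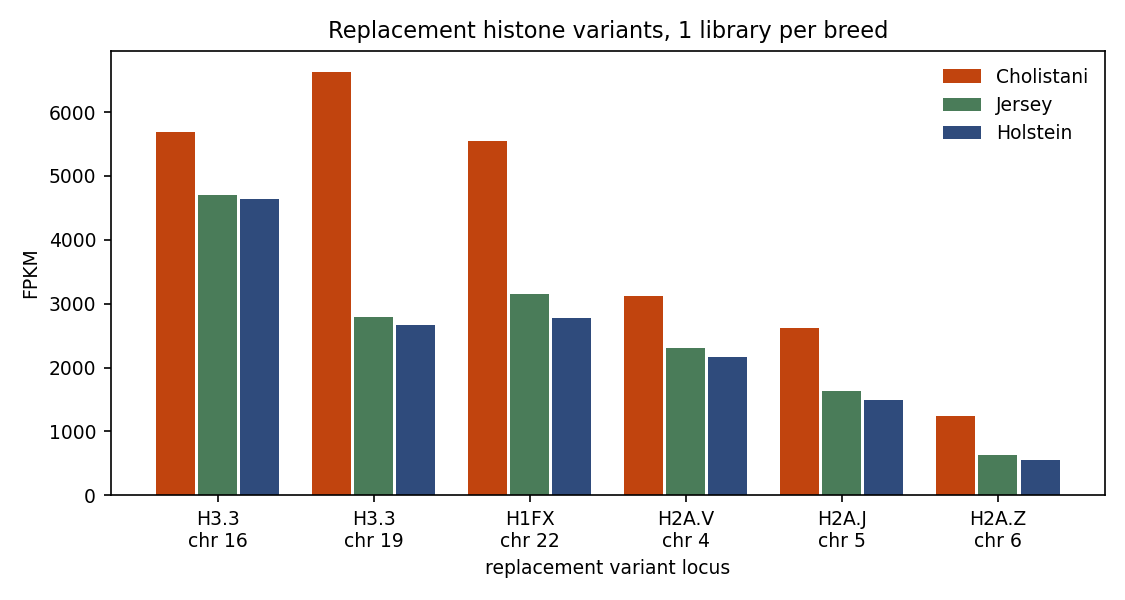
FPKM (vertical axis, linear from 0) of the 6 replacement variant loci (horizontal axis, with chromosome) in the pooled Cholistani, Jersey and Holstein libraries, 1 bar per library. Jersey and Holstein bars are nearly level at each locus, and the Cholistani bar of H3.3 on chromosome 19 (6628 FPKM) stands farthest above its Holstein bar (2664 FPKM). After rescaling, H3.3 on chromosome 16 and H2A.V were lower in Cholistani than in Holstein (log2 ratios -0.39 and -0.15, median of all models -0.43).

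In Jersey against Holstein the variants were nearly level, with log2 ratios of FPKM + 1 from 0.02 to 0.19. By 2-fold 0 of 6 differed, against 7.99% of all models higher and 4.70% lower. In Cholistani against Holstein their log2 ratios lay between 0.29 and 1.31, with a median of 0.91, and 3 of 6 were at least 2-fold higher, against 19.7% of all 15284 models compared. After rescaling, 0 of 6 reached 2-fold, when 11.6% of all models were higher and 27.5% lower. On that scale 4 had a log2 ratio above and 2 below 0. In Cholistani against Jersey 1 of 6, the H3.3 locus on chromosome 19, was at least 2-fold higher, against 17.2% of all models. After rescaling 0 of 6 were higher or lower (log2 ratio 0.65 at that locus), when 10.4% of all models were higher and 26.2% lower.

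The chromosome 23 loci formed 1 run of 1000990 bases, chr23:31009836-32010825. It held 11 H4, 10 H3, 8 H2B and 7 H2A loci and H1.1. The models listed there were short. Among H4, H3.1, H2B1 and H2A1 models, the most common listed spans were 312, 411, 381 and 393 bases, all multiples of 3, so that these models cover a coding length without untranslated regions. Models of such a coding length made up 23 of the 45 canonical loci. Another 11 shared their listed span with other models: 8 members lay in a span of 16 models (chr23:31775608-31934458) and 3 in a span of 4 models (chr23:31031872-31057302). Copies of canonical histone genes are in general near-identical, but the sequences of these loci were not compared here. The authors kept reads that aligned to as many as 20 places, so the value of any one copy is uncertain. Sums over a class depend less on how reads were divided.

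The cluster as a whole was at similar levels in Cholistani and Jersey as deposited and lower in Holstein. Its 37 loci summed to 2733 FPKM in Cholistani, 2577 in Jersey and 1361 in Holstein. As a share of the summed FPKM of the library this was 0.0287% in Cholistani, 0.0410% in Jersey and 0.0229% in Holstein, so that Cholistani was below Jersey on that scale. Loci without any signal were most numerous in Holstein, where 18 of 37 were listed at 0, against 6 in Cholistani and 2 in Jersey. Of these 18, 11 were above 0 in both other breeds. Across all models 12.3% were listed at 0 in Holstein, 10.6% in Cholistani and 9.82% in Jersey, and the share was larger among short models as a whole. Among the other models with a listed span of at most 500 bases, 40.3% were at 0 in Holstein, 32.6% in Cholistani and 32.6% in Jersey, and among the 156 of these with a name, 23.1%, 25% and 7.05%. Histone loci of that span were at 0 in 13 of 28 cases in Holstein (46.4%), 5 in Cholistani (17.9%) and 2 in Jersey (7.14%). By the paper's counts, Holstein also had the fewest mapped fragments of the libraries, and Cholistani the most. The part that model length or depth has in the zeros was not tested.

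Over all 51 loci, 12 were above 0 in both Cholistani and Jersey and at 0 in Holstein, against 2.19% of all models and 4.59% of the other short models. The 3 loci at 0 in Cholistani only, all of them H4, stood against 4.48% of all models and 8.26% of the short ones. At 0 in Jersey only there were 0 loci, against 0.949% and 3.78%. Jersey alone was above 0 at 5 loci (3.66% of all models), Cholistani alone at 2 (6.42%) and Holstein alone at 0 (2.45%). The highest value of a canonical locus lay between 28.5 and 118 FPKM (lower and upper quartile), and of the 4418 other models with a highest value in that range 5.82% were at 0 in Cholistani, 6.27% in Jersey and 7.4% in Holstein.

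**Figure D2:**
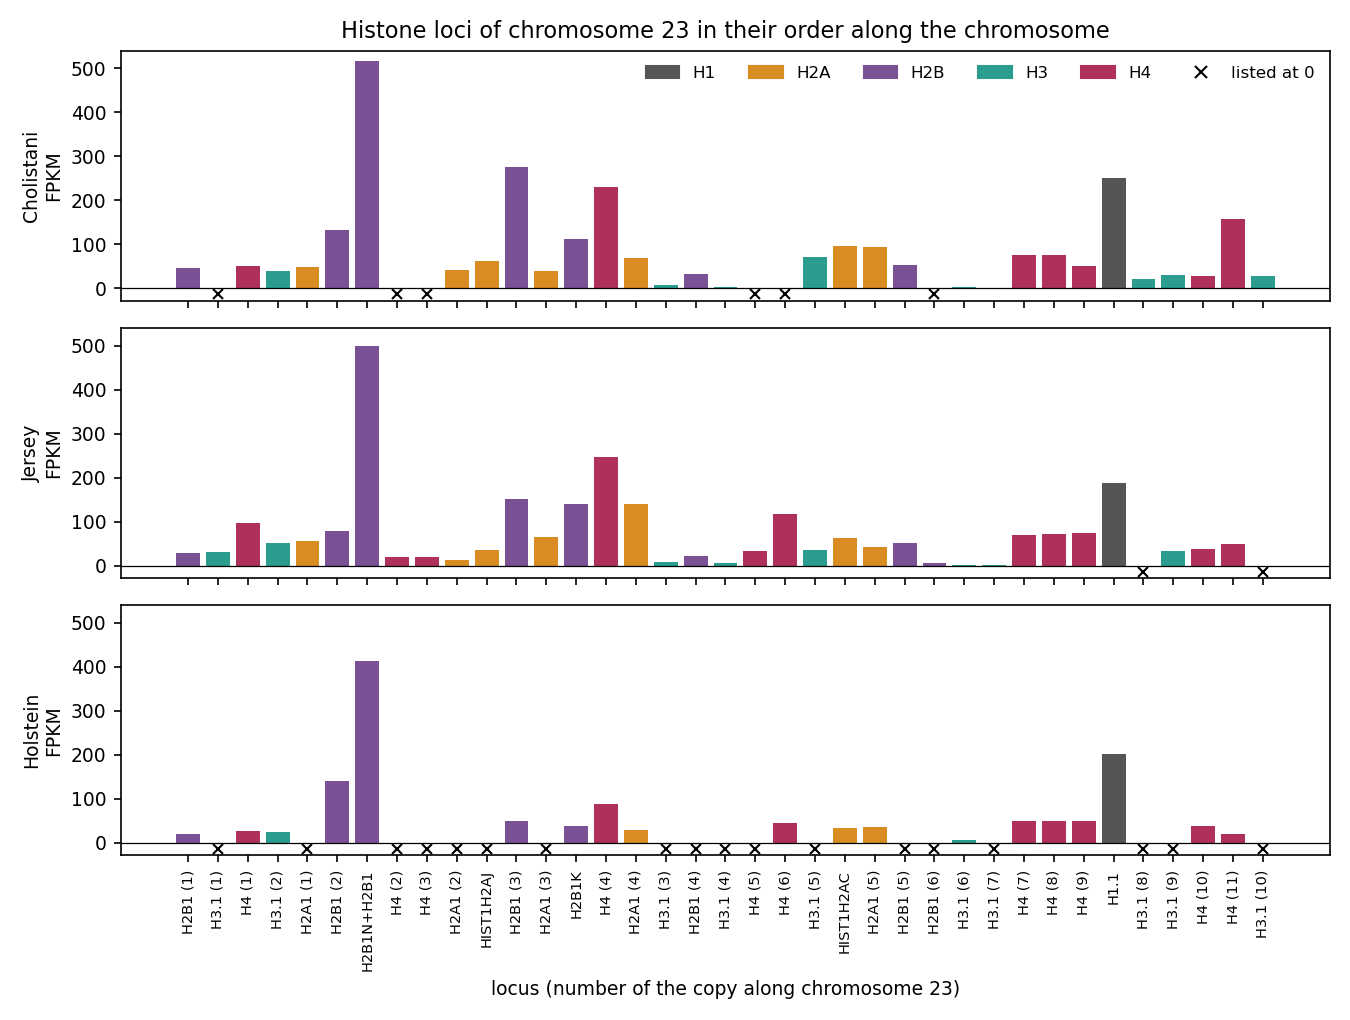
FPKM (vertical axes, linear) of the 37 histone loci of chromosome 23 in the Cholistani, Jersey and Holstein libraries (panels from top to bottom), in their order along the chromosome and coloured by histone class. Crosses mark loci listed at 0, of which there are 6 in Cholistani, 2 in Jersey and 18 in Holstein. Loci that share a listed span are placed side by side.

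In Jersey against Holstein, 23 of the 37 chromosome 23 loci (62.2%) were at least 2-fold higher in FPKM + 1 and 1 was lower, against 7.99% and 4.70% of all models. Of the 23, 15 were listed at 0 in Holstein. Of the 14 loci elsewhere, 4 were higher and 0 lower. All 4 were canonical, so that among canonical loci 4 of 8 elsewhere and 23 of 37 in the cluster were higher. The median log2 ratio was 1.56 in the cluster, 0.84 at the canonical loci elsewhere, 0.11 at the variants and 0 over all models. Short models in general leaned the same way. Among other models of at most 500 bases 26.4% were at least 2-fold higher in Jersey and 14.2% lower, and among those with a name 42.9% and 5.13%, while 20 of 28 histone loci of that span (71.4%) were higher and 0 lower. Counted only over loci above 0 in both libraries, the cluster's median was 0.57.

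Among the cluster loci above 0 in both breeds with large differences were H2B1K (chr23:31367018-31367692), with 139 FPKM in Jersey and 38.1 in Holstein, and H4 copy 1 (chr23:31021291-31021602), with 97.2 and 26.9 FPKM. Copies are numbered by name along chromosome 23. H4 copy 4 (chr23:31713298-31713609), the most abundant H4 locus, had 246 FPKM in Jersey and 87.5 in Holstein, and 230.2 FPKM in Cholistani. The other direction was rare. H2B1 copy 2 (chr23:31027423-31027803) had 79.3 FPKM in Jersey and 141 in Holstein, and H1.1 had 187 and 202 FPKM. The only locus at least 2-fold lower in Jersey was H3.1 copy 6, which was low in every breed (2.08 FPKM in Cholistani, 1.53 in Jersey and 6.83 in Holstein) and shares its listed span.

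In Cholistani against Holstein, 20 of 37 cluster loci (54.1%) were at least 2-fold higher and 2 were lower, against 19.7% and 13.7% of all models. Elsewhere 6 of 14 were higher and 2 lower. Over all 51 loci the split was 26 higher and 4 lower as deposited, and 16 higher and 6 lower after rescaling, when 11.6% of all models were higher and 27.5% lower. Of the 16, 13 were listed at 0 in Holstein. The median log2 ratio of the cluster was 1.20 as deposited and 0.56 after rescaling, and that of the canonical loci elsewhere was 0.91 and 0.26. Among loci above 0 in both libraries the order was the reverse. There the median was 0.74 over 18 cluster loci and 0.92 over 5 canonical loci elsewhere, and after rescaling 0.08 and 0.27. Of the 28 histone loci of at most 500 bases, 18 were at least 2-fold higher and 3 lower as deposited, against 39.8% and 19.6% of the other models of that span and 41% and 16.7% of those with a name.

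Between Cholistani and Jersey the cluster did not lean to a side as deposited. Of its 37 loci 5 were at least 2-fold higher in Cholistani and 6 lower, against 17.2% and 14.2% of all models, and the median log2 ratio was 0.05. All 6 lower loci were listed at 0 in Cholistani, and 4 of them were H4 copies. Over all 51 loci 6 were higher and 8 lower. After rescaling 4 were higher (7.8%) and 15 lower (29.4%), near the 10.4% and 26.2% of all models on that scale. Among the 28 loci of at most 500 bases 4 were higher and 5 lower, against 36.4% and 28.4% of the other models of that span and 29.5% and 35.9% of those with a name. The comparisons share libraries, so their counts are not independent of each other.

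**Figure D3:**
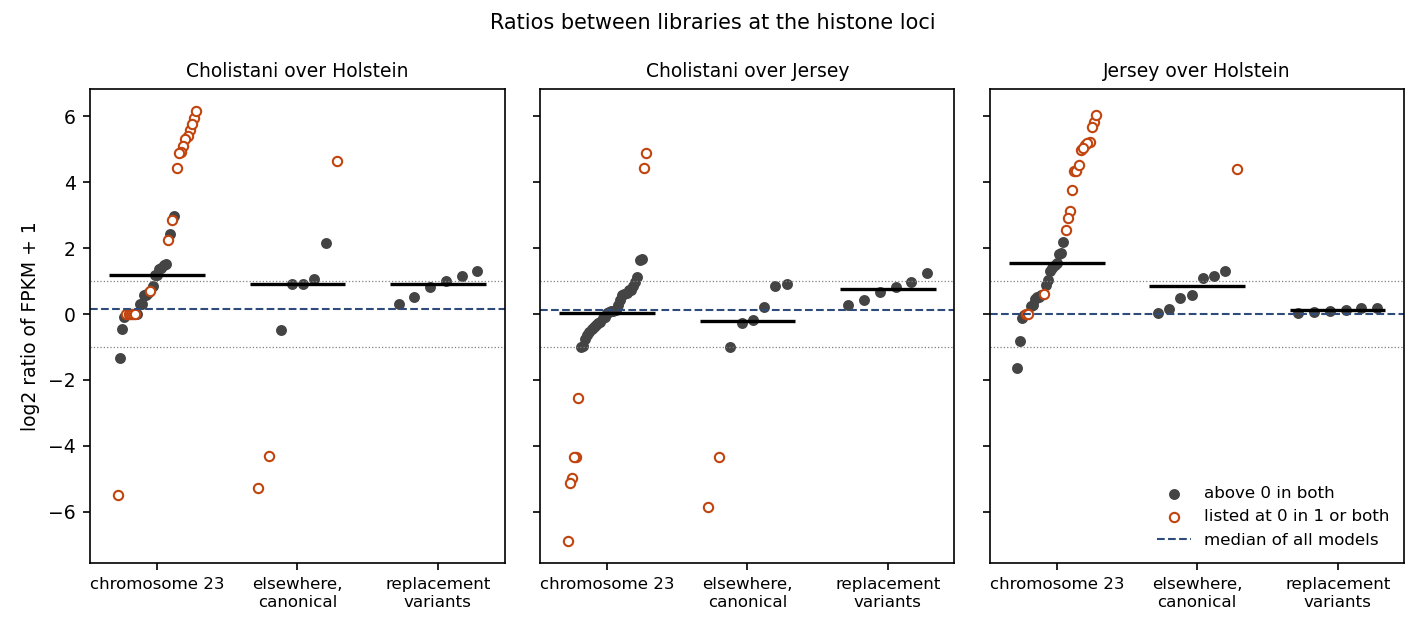
Log2 ratio of FPKM + 1 (vertical axes) between pairs of libraries for the 37 chromosome 23 loci, the 8 canonical loci elsewhere and the 6 replacement variants, 1 point per locus in rising order. Open points are listed at 0 in 1 or both libraries, where the size of the ratio depends on the added 1. Solid bars are group medians (1.56, 0.84 and 0.11 in Jersey over Holstein), the dashed line is the median of all models and dotted lines mark 2-fold.

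Against Holstein, the H3 class had the largest ratios of summed FPKM among the canonical classes, both in Cholistani (7.13) and in Jersey (5.88), while Cholistani over Jersey was 1.21. The 11 canonical H3 loci summed to 225 FPKM in Cholistani, 185 in Jersey and 31.5 in Holstein. Of these loci 10, 9 and 2 were above 0 (other models of at most 500 bases: 32.6%, 32.6% and 40.3% at 0). The pair above 0 in Holstein were H3.1 copy 2 (24.7 FPKM, against 38.7 in Cholistani and 51.1 in Jersey) and copy 6. H3.1 copy 5 (chr23:31753890-31754300), the highest H3 locus in Cholistani, had 71.3 FPKM in Cholistani and 35.5 in Jersey and was listed at 0 in Holstein. H3.1 copies 8 and 10, at 20.5 and 28.5 FPKM, were above 0 in Cholistani alone. The H3.2 locus of chromosome 3 followed the cluster, with 23.8 FPKM in Cholistani, 20.2 in Jersey and a value of 0 in Holstein. Against these values, the H3.3 pair summed to 12310.2 FPKM in Cholistani, 7496 in Jersey and 7306 in Holstein.

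H4, the most conserved histone, was the class with the most zeros in Cholistani. All 14 H4 loci were above 0 in Jersey, 11 in Holstein and 8 in Cholistani. Among other models of at most 500 bases, 32.6% were at 0 in Jersey, 40.3% in Holstein and 32.6% in Cholistani. The H4 loci summed to 685 FPKM in Cholistani, 934 in Jersey and 431 in Holstein. The spread over copies was wide. In Cholistani they reached from 0 to 230.2 FPKM with a median of 23.4, in Jersey from 19.1 to 246 with a median of 52.9, and in Holstein from 0 to 87.5 with a median of 32.2. H4 copy 6 (chr23:31741806-31742117) was listed at 0 in Cholistani and had 118 FPKM in Jersey and 44.1 in Holstein. H4 copy 11 (chr23:32009347-32009658) went the other way, with 158 FPKM in Cholistani, 48.7 in Jersey and 19.3 in Holstein, the largest difference between Cholistani and Holstein at any histone locus above 0 in both. After rescaling its log2 ratio was still 2.31 against Holstein and 1.08 against Jersey.

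Some copies of H4 that share a listed span had nearly equal values. Copies 7 and 8 had 75.2 and 75.7 FPKM in Cholistani, 68.5 and 71.5 in Jersey, and 49.6 and 50.01 in Holstein. Copy 9 of the same span had 50.4, 74.7 and 49.9 FPKM in these breeds, so that it was lower than both in Cholistani. Copies 2 and 3, in the other shared span, were at 19.3 FPKM each in Jersey and listed at 0 in Cholistani and Holstein.

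The H2A class had 9 canonical loci, which summed to 1454 FPKM in Cholistani, 1081 in Jersey and 592 in Holstein. Its 7 cluster loci were all above 0 in Cholistani (447 FPKM in sum) and Jersey (414 FPKM), while only 3 were above 0 in Holstein (99.1 FPKM in sum). The H2A1 copies 1 and 3 and HIST1H2AJ were among the 4 at 0 in Holstein (other models of at most 500 bases: 40.3% at 0). H2A1 copy 1 had 47.2 FPKM in Cholistani and 55.9 in Jersey, H2A1 copy 3 had 38.5 and 65.4 FPKM, and HIST1H2AJ had 60.9 and 36.1 FPKM. H2A1 copy 4 (chr23:31718095-31718555) had 69.8 FPKM in Cholistani, 140 in Jersey and 29.8 in Holstein. In contrast, H2A1 copy 5, in a shared span, was highest in Cholistani (92.9 FPKM, against 42.5 in Jersey and 35.8 in Holstein).

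H2B was the most abundant canonical class of the cluster. Its 8 loci there summed to 1168 FPKM in Cholistani, 976 in Jersey and 664 in Holstein. The merged model of H2B1N and H2B1 alone had 516, 500.1 and 414 FPKM and was the highest chromosome 23 histone locus in each breed. H2B1 copy 3 (chr23:31064115-31064495) had 275 FPKM in Cholistani, 151 in Jersey and 50.5 in Holstein. H2B1 copy 5, in a shared span, had 53.5 FPKM in Cholistani and 50.3 in Jersey and was listed at 0 in Holstein. H1.1, the only canonical linker histone among the loci, varied little, with 251 FPKM in Cholistani, 187 in Jersey and 202 in Holstein.

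**Figure D4:**
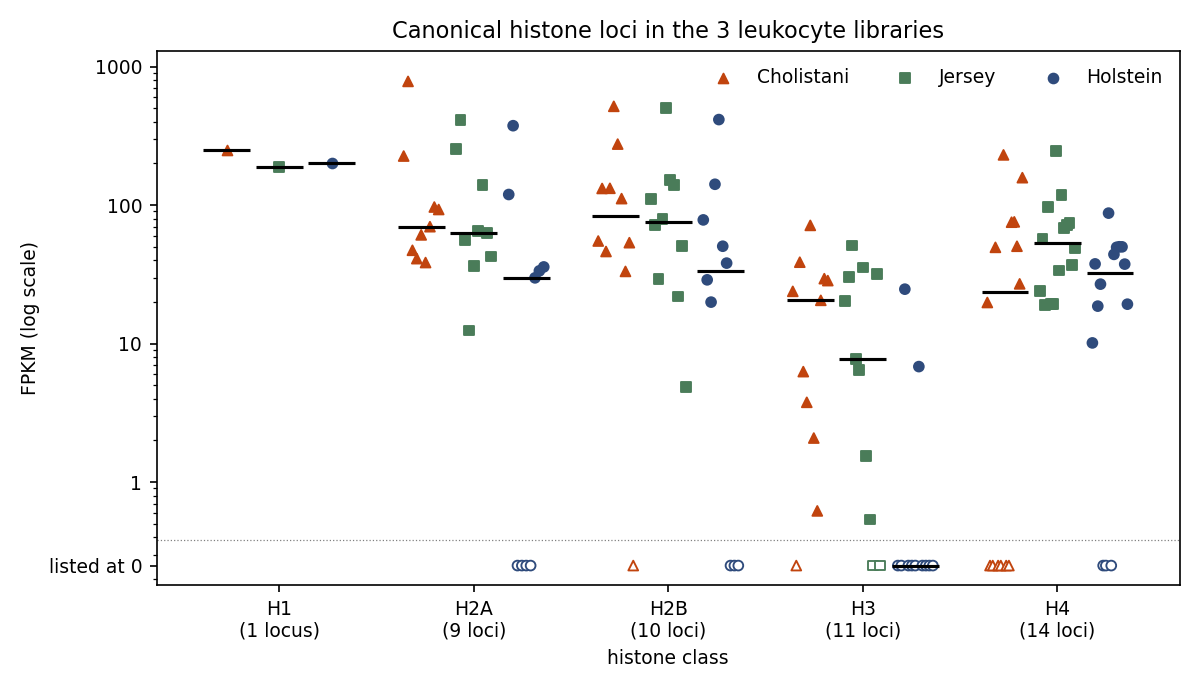
FPKM (vertical axis, log scale) of the 45 canonical histone loci by class in the Cholistani, Jersey and Holstein libraries, 1 point per locus, with loci listed at 0 as open points under the dotted line and the median of each class as a bar. In the H3 class 9 of 11 loci are at 0 in Holstein (other models of at most 500 bases: 40.3%). In the H4 class 6 of 14 are at 0 in Cholistani (other models of that span: 32.6%) while all are above 0 in Jersey.

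Histone H2A and H2B genes often lie next to each other. At 4 places of the cluster an H2A and an H2B model with spans of their own were less than 1 kb apart, with 275 to 306 bases between them (these pairs were chosen after their values were seen). At 1 of them the H2A model was at 0 in every breed. In the other 3 pairs the H2B partner was above 0 in all breeds and the H2A partner was listed at 0 in Holstein. In Holstein, H2B1 copy 2 had 141 FPKM beside H2A1 copy 1, H2B1 copy 3 had 50.5 FPKM beside HIST1H2AJ, and H2B1K had 38.1 FPKM beside H2A1 copy 3. The H2B partner was also the higher of each of these 3 pairs in Cholistani (132 against 47.2 FPKM, 275 against 60.9, and 111 against 38.5) and in Jersey (79.3 against 55.9 FPKM, 151 against 36.1, and 139 against 65.4).

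A smaller cluster of canonical loci lay on chromosome 3. There HIST2H2AA4 (chr3:22285520-22285912), the most abundant canonical locus in Cholistani, had 781 FPKM in Cholistani, 412 in Jersey and 374 in Holstein. H2A2C (chr3:22263144-22263598) had 226 FPKM in Cholistani, 254 in Jersey and 119 in Holstein. H2B1 of chromosome 3 was the only canonical locus above 0 in all breeds and outside chromosome 23 that was lowest in Cholistani (55.0 FPKM, against 111 in Jersey and 78.2 in Holstein). An H4 locus of the same stretch (chr3:22367202-22367513) was listed at 0 in Cholistani and had 57.2 FPKM in Jersey and 37.6 in Holstein. On chromosome 5 an H4 locus next to H2A.J was also at 0 in Cholistani, with 19.1 FPKM in Jersey and 18.6 in Holstein. HIST3H2BB on chromosome 7 had 132 FPKM in Cholistani, 72.3 in Jersey and 28.9 in Holstein.

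Models outside the name rule that lie between the histone loci of chromosome 23 were examined beside them. Of 41 such models 26 were above 0 in any library, of which 6 were at 0 in Cholistani, 4 in Jersey and 7 in Holstein. The 26 include the merged model that holds an H2B1 name, and without it 25 remain. Of the 25, 7 were at least 2-fold higher in Jersey than in Holstein and 2 lower, beside 7.99% and 4.70% of all models. Their median log2 ratio was 0.37, against 1.56 for the histone loci. Over models above 0 in both libraries the medians were closer, at 0.32 and 0.57. For the 13 named models of the stretch above 0 in both, with the merged model, the median was 0.68. In Cholistani 6 of 25 were higher and 5 lower than in Holstein, beside 19.7% and 13.7% of all models. The median was 0, against 1.20 for the histone loci, and above 0 in both libraries -0.09 against 0.74. Cholistani against Jersey gave 2 higher and 7 lower, beside 17.2% and 14.2% of all models, with a median of -0.41, against 0.05. Models in the stretch without a gene symbol may include further histones.

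Genes that make and process canonical histone mRNA differed little between Jersey and Holstein. Of 16 genes of histone mRNA processing and transcription, 13 were found and measured. In Jersey against Holstein 0 of 13 differed by 2-fold (7.99% of all models were higher and 4.70% lower), with a median log2 ratio of 0.08. NPAT, the coactivator of histone genes, had 21.6 FPKM in Cholistani, 31.8 in Jersey and 30.1 in Holstein, and LSM11, of the U7 snRNP that trims histone mRNA, had 25.7, 34.2 and 29.1 FPKM. The most abundant were the mRNA decay factor UPF1 (379, 333 and 326 FPKM) and the endonuclease CPSF3 (249, 202 and 174 FPKM). ZNF473, another protein of the U7 complex, was the only one of 13 at least 2-fold lower in Cholistani as deposited, with 11.4 FPKM against 28.3 in Jersey and 28.6 in Holstein (all models: 13.7% lower than in Holstein and 14.2% than in Jersey). After rescaling 2 of 13 were lower than in Holstein, with NPAT, and 3 than in Jersey, with NPAT and YTHDC2 (all models: 27.5% and 26.2%). Also among the 4 farthest from 0 against Holstein, the scaffold SYMPK had 158 FPKM in Cholistani, 125 in Jersey and 109 in Holstein.

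Of 24 histone chaperones 15 were measured, and 0 differed by 2-fold between Jersey and Holstein (7.99% of all models were higher and 4.70% lower). In Cholistani against Holstein 2 were at least 2-fold higher, 2 were lower and 11 were neither, with a median log2 ratio of 0.01, beside 19.7% of all models higher and 13.7% lower. After rescaling 0 were higher and 5 lower (median -0.66), beside 11.6% and 27.5% of all models. ASF1B and CHAF1A, which hand new histones to replicating DNA, had 218 and 88.2 FPKM in Cholistani, 72.6 and 32.9 FPKM in Jersey, and 84.6 and 37.3 FPKM in Holstein. ATRX and UBN2, which act with the H3.3 chaperones DAXX and HIRA, were lower in Cholistani, with 55.1 and 5.59 FPKM, against 109.8 and 10.7 FPKM in Jersey and 119.8 and 14.05 FPKM in Holstein. HIRA itself was not lower as deposited, with 179.5 FPKM in Cholistani, 140.1 in Jersey and 139.3 in Holstein (log2 ratio -0.31 against Holstein after rescaling). UBN1 was level as deposited (170.2, 169.3 and 167.9 FPKM). The most abundant chaperones were RBBP4 (1194, 1281 and 1558 FPKM in Cholistani, Jersey and Holstein) and NAP1L4 (566, 445 and 445 FPKM).

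Genes of DNA replication and mitosis, which mark cells in the cycle, were also level between Jersey and Holstein. Of 24 genes 18 were measured, all above 0 in both libraries. Between Jersey and Holstein 0 differed by 2-fold, beside 7.99% of all models higher and 4.70% lower. The median log2 ratio was -0.08, beside the cluster's median of 0.57 over loci above 0 in both libraries (1.56 with the loci at 0). In Cholistani against Holstein 7 of 18 were at least 2-fold higher and 0 lower (median log2 ratio 0.93), beside 19.7% of all models higher, and in Cholistani against Jersey 10 of 18 were higher and 0 lower (median 1.14), beside 17.2%. After rescaling only the replication factor gene GINS2 was higher in either comparison (medians 0.25 and 0.54), beside 11.6% and 10.4% of all models. GINS2 had 137 FPKM in Cholistani, 31.8 in Jersey and 39.5 in Holstein, and CDC6, which loads the replicative helicase, had 51.8, 20.4 and 18.01 FPKM. E2F1, a transcription factor of the S phase, had 84.9, 31.5 and 33.5 FPKM. The most abundant were MCM7 of the replicative helicase (1022, 523 and 524 FPKM) and the polymerase clamp PCNA (829, 360.2 and 364 FPKM). Whether the number of cycling cells has a part in any histone value was not tested.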

How the data were processed

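Reads had been mapped by the authors on the btau4.0 assembly (TopHat 1.0.14 and Bowtie 0.12.7, with splice junctions of Ensembl release 60), and reads that fell in more than 20 places were discarded. Cufflinks 0.9.3 then gave the deposited FPKM, with the authors' settings for upper quartile scaling and bias correction, for 1 library per breed. They were used as deposited, in Python 3.11.15 with pandas 2.3.3 and numpy 2.4.6.

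Histone loci were found by the start of the model name. Replacement variants were set apart by name, all other loci are called canonical. Starts in the table are 0-based, since 1-based ones would make coding lengths that are no multiples of 3, and are given here with 1 added. Ratios are log2 of FPKM + 1, with a threshold of 2-fold, which understates differences of low values. No test was possible. The 2 models with a missing value that were above 0 were left out, which leaves 15284. Values of equal-length H4, H3.1 and H2B1 models were not whole multiples of a common step (tolerance 0.05 of a step), so fragment numbers could not be recovered and no interval was computed. The procedure was tested on simulated data. Depth is not given in the file, but the paper reports the fewest mapped fragments for Holstein and the most for Cholistani.

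The members, the lists and their classes were chosen with earlier results of these data known. Loci were named as follows: all variants, the 8 most abundant other loci, every locus with at least 50 FPKM that was at 0 in another breed, the 5 highest and 5 lowest per comparison with at least 50 FPKM, and of each list of other genes the 4 farthest from 0 and the 2 most abundant. Further loci were named as examples of a class after their values were seen. Other genes were matched by symbol or protein entry name, and the most abundant model was taken. The alternatives were pseudocounts of 0.1 and 10, minimum levels, centring, rescaling each library to a common sum (the mean over the libraries), 1 model per name, single-gene names, the largest run on chromosome 23, and class sums without the most abundant locus. Loci above 0 in both libraries and loci without a shared span were added after seeing the data. A value counted as changed when it moved by more than 1.5 times. Sequences of the loci and of their promoters were not used here.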

Additional observations from a re-analysis of the deposited data

How the results depend on the processing

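Of 150 values recomputed, 115 stayed within 1.5 times of the value reported and no called direction reversed. Among the 115 are 6 for the largest run on chromosome 23, which holds all 37 loci and so could not differ. Rescaling to the mean sum changed many of the others, and turned the sign of some uncalled values. It gave 16 loci higher in Cholistani than in Holstein (all models: 11.6%) and 15 lower than in Jersey (all models: 26.2%). Median log2 ratios against Holstein and Jersey were then 0.56 and -0.55 for the chromosome 23 loci and 0.26 and -0.24 for the loci elsewhere. Centring on the median of models with at least 10 FPKM gave 0.98 and -0.13 for the chromosome 23 loci. For the loci elsewhere it gave 0.69 and 0.19, and all 12 centred values counted as unchanged. Log2 ratios of class sums after rescaling were 0.62 (H2A), 0.14 (H2B), 2.16 (H3), -0.0088 (H4) and 0.12 (variants) against Holstein, and -0.17, -0.37, -0.32, -1.04 and 0.11 against Jersey. With 1 model per name, 11 names were higher and 0 lower in the comparison of Cholistani with Holstein, 0 and 0 in that with Jersey, and 9 and 0 in that of Jersey with Holstein. Counted per model, all models gave 19.7% higher and 13.7% lower, 17.2% and 14.2%, and 7.99% and 4.70% in these comparisons. Among loci above 0 in both libraries only, 13 of 29 were higher and 1 lower in Cholistani against Holstein. Against Jersey 0 of 41 were lower. In Jersey against Holstein 11 of 32 were higher, with a chromosome 23 median of 0.57. Of all models, 12349, 12538 and 12889 were above 0 in both libraries of these pairs. Of 3006 models higher in Cholistani than in Holstein 1311 were at 0 in Holstein, and of 2099 lower 1047 were at 0 in Cholistani. Of 2177 lower in Cholistani than in Jersey 1237 were at 0 in Cholistani. Of 1221 higher in Jersey than in Holstein 884 were at 0 in Holstein. Without shared spans the chromosome 23 median between Cholistani and Holstein was 1.89. With that setting 5 loci were lower in Cholistani than in Jersey (all models: 14.2%) and 0 lower in Jersey than in Holstein (all models: 4.70%). That last count was also 0 with a pseudocount of 10 or a minimum of 10 FPKM. Without its most abundant locus, the H3 class had log2 ratios of 4.77 (Cholistani over Holstein) and 4.30 (Jersey over Holstein), and the H2A class one of 1.62 (Jersey over Holstein). Apart from settings that change the scale or the loci counted, the cause was not tested. No paired analysis was possible because each breed has 1 library, which also leaves no library to leave out.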

Other observations

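Other leukocyte genes were measured beside the histone loci. Over 6 T cell genes the median log2 ratio of Cholistani over Holstein was 0.62 (-0.06 after rescaling) and that of Jersey over Holstein was -0.01. Over 4 natural killer cell genes the medians were 1.76 (1.08 after rescaling) and -0.02, and the list was not uniform: GZMB had 436 FPKM in Cholistani, 52.3 in Jersey and 42.3 in Holstein, while GZMA was listed at 0 in Cholistani and had 11.5 FPKM in Jersey and 8.63 in Holstein. Over 4 B cell genes the medians were 0.74 (0.07 after rescaling) and 0.41. In Cholistani over Holstein 3 of these 4 were above 0, with CD79A at 1.43, and PAX5 was at -1.02. The neutrophil medians were 0.10 (-0.58 after rescaling) and -0.52 over 7 genes, and the platelet medians -0.21 (-0.88) and 0.09 over 5 genes. These lists were not uniform either. In Cholistani over Holstein 5 neutrophil genes were above 0 and 2 below, from 4.12 at CXCR2 to -0.51 at S100A8. CXCR2 had 598 FPKM in Cholistani, 7.62 in Jersey and 33.5 in Holstein. Of the platelet genes 2 were above 0 and 3 below, from 1.16 at GP9 to -1.75 at TREML1. A pair of monocyte genes summed to 568 FPKM in Cholistani, 356 in Jersey and 545 in Holstein, and a pair of eosinophil genes to 23.1, 46.2 and 7.60 FPKM. Among 3 red cell genes, ALAS2 of heme synthesis had 32.3 FPKM in Cholistani, 363 in Jersey and 536 in Holstein, whereas HBA, an alpha globin, had 69.3 FPKM in Cholistani and 11.5 in Jersey and was listed at 0 in Holstein. EPB42 was listed at 0 in Cholistani and had 9.94 FPKM in Jersey and 13.5 in Holstein. The part of any of these cells in the histone values was not tested.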
